A study of Mus musculus with 24 samples.

Results

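The genes described here encode the NuRD complex, the nucleosome remodeling and deacetylase complex of which the chromatin remodeler CHD4 is the catalytic core. They are the 10 genes of the expression table named *Chd4*, *Chd3*, *Hdac1*, *Hdac2*, *Mta1*, *Mta2*, *Mta3*, *Mbd2*, *Mbd3* and *Gatad2a*, out of 25361 genes in all. They were chosen by name, and each of the 10 passed the filter on low values in every comparison. Another 5 NuRD genes, *Chd5*, *Gatad2b*, *Rbbp4*, *Rbbp7* and *Cdk2ap1*, were read alongside them.

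RNA was sequenced from livers of mouse embryos at E12.5, separated into a CD146+ fraction of liver sinusoidal endothelial cells (LSECs) and the remaining non-endothelial liver cells (non-ECs). In each fraction there were 3 libraries from each of 4 genotypes, which gave 24 libraries in 8 groups. Control embryos carried no Cre and, by the paper's account, at least 1 floxed allele of Chd4 and of Brg1. The mice were of a mixed genetic background. Livers were digested with the transcription inhibitors actinomycin D and triptolide, and with anisomycin. Chd4-ECKO embryos were Chd4 fl/fl, Brg1 fl/+ and VE-cadherin-Cre+. Brg1-ECKO embryos were Chd4 fl/+, Brg1 fl/fl and VE-cadherin-Cre+. Chd4/Brg1-ECDKO embryos were fl/fl for both genes and VE-cadherin-Cre+. Each of the 3 mutant genotypes therefore carried at least 1 floxed allele of *Chd4* and of *Brg1*, the remodeler gene whose symbol is *Smarca4*, and no group carried Cre without floxed alleles. VE-cadherin-Cre is active in endothelial cells and also in blood cells that descend from them, and blood cell markers were present in both fractions (given below). The comparisons ask whether *Chd4* was lost in the LSEC libraries, which NuRD paralogs each fraction used, and whether any paralog stood higher where *Chd4* had been deleted.

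NuRD joins a remodeling ATPase (CHD3, CHD4 or CHD5) to a histone deacetylase core of HDAC1 or HDAC2 with an MTA scaffold. MBD2 or MBD3, of which MBD2 binds methylated DNA, and a GATAD2 protein link the deacetylase core to the CHD protein. The CHD paralogs, and likewise MBD2 and MBD3, are thought to exclude each other from a single complex, whereas HDAC1 and HDAC2 can be found in the same one, as can RBBP4 and RBBP7. In the fetal liver, NuRD is known both from endothelial cells and from blood cells, where it works with factors such as BCL11A, IKZF1 and FOG1.

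In GENCODE vM39 on GRCm39, *Chd4* (ENSMUSG00000063870) lies at chr6:125072944-125107554 on the plus strand and *Chd3* (ENSMUSG00000018474) at chr11:69234088-69260252 on the minus strand. *Hdac1* (ENSMUSG00000028800) lies at chr4:129409895-129436631 on the minus strand and *Hdac2* (ENSMUSG00000019777) at chr10:36850435-36877890 on the plus strand. *Mta1* lies at chr12:113061350-113101578, *Mta2* at chr19:8919061-8929673 and *Mta3* at chr17:84013240-84147096, each on the plus strand. *Mbd3* lies at chr10:80225002-80235397 and *Gatad2a* at chr8:70359713-70449062, both on the minus strand. *Hdac1* and *Hdac2* overlap no other annotated gene. The other 8 overlap long noncoding RNAs on the opposite strand, and *Mta3* also overlaps the protein-coding gene *Haao*. The strand setting of the counting is not given in the sources used here, so reads of those overlapping genes cannot be told apart from reads of the members.

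Levels of paralogs can be set side by side only if reads tell the paralogs apart. The longest identical stretch that *Chd3* and *Chd4* transcripts share is 35 bases, in capitals below with 30 bases on either side, and all 95 bases of each window are coding. In *Chd3* the window spans exons 22 and 23 (chr11:69244687-69244947, minus strand) and in *Chd4* exons 23 and 24 (chr6:125090493-125090897, plus strand), and the windows differ at 16 positions.
Chd3: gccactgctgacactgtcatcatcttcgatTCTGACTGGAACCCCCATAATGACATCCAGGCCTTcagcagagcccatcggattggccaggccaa
Chd4: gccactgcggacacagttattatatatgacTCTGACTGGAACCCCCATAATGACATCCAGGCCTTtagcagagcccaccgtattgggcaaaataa

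*Hdac2* and *Hdac1* share at most 17 identical bases, shown in capitals in the same way because this pair differed in the non-EC libraries. The 77 bases are coding and span exons 3 and 4 of both genes (chr10:36862351-36864082, plus strand, and chr4:129418107-129422789, minus strand), with 15 differing positions.
Hdac2: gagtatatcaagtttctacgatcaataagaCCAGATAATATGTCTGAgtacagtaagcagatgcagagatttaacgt
Hdac1: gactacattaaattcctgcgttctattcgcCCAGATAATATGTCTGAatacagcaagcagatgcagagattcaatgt

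The longest shared stretches of the other pairs were 20 bases for *Mta1* and *Mta2*, 18 for *Mta3* and *Mta2*, 26 for *Mbd2* and *Mbd3*, and 21 for *Gatad2b* and *Gatad2a*. In 9 of the 10 members, 0% of the 50-base windows of the transcript occurred in a transcript of another gene. *Hdac1* was the exception, with 58.5% of its windows also present in the processed pseudogene Hdac1-ps, which has no line of its own in the table. How reads that match both were counted is not given in the sources used here, so the level of *Hdac1* is uncertain. Among the other NuRD genes, *Cdk2ap1* had 67.9% of its windows also present in the protein-coding gene Cdk2ap1rt. *Rbbp7* had 9.16% in the processed pseudogene Gm6382 and *Rbbp4* 0.916% in the processed pseudogene Gm4800. *Chd5* and *Gatad2b* had 0%. The levels of *Cdk2ap1*, *Rbbp7* and *Rbbp4* carry the same doubt, and *Cdk2ap1* has the largest share of such windows.

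The values are TPM, which are scaled to gene length and to the same total in each library. The paper gives a nominal number of reads, and the depth of each library is unknown. Labelled fractions were checked against marker genes. The LSEC libraries held *Cdh5*, which encodes VE-cadherin, at 194 to 368 TPM and *Mcam*, which encodes CD146, at 34.8 to 64.8 TPM, and the non-EC libraries held them at 3.33 to 13.4 and 0.25 to 0.841 TPM. The LSEC fraction was not purely endothelial, because a summed list of mesenchymal markers stood at 331 to 589 TPM there and at 8.18 to 34.8 TPM in non-ECs. Summed leukocyte markers stood at 246 to 547 TPM in LSECs and 154 to 306 TPM in non-ECs, and summed erythroid markers at 338 to 2089 TPM in LSECs and 1828 to 12095 TPM in non-ECs. LSEC Brg1-ECKO replicate 1 stood apart, with a hepatoblast marker sum of 25515 TPM against an LSEC median of 5431 TPM. Mitochondrial transcripts took 13.9 to 31.5% of the total in LSECs and 2.33 to 7.69% in non-ECs, which lowers the TPM of every other gene in LSECs. Without them, the median difference of all genes between LSECs and non-ECs moved from -0.00 to 0.24 (log2), and with quantile normalisation it moved to -0.14. In these bulk libraries, fewer cells of a type and less RNA per cell cannot be told apart.

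In LSECs, *Hdac1* was the most abundant member (mean 352 ± 31.6 TPM, SD, n = 12), followed by *Mbd3* (287 ± 15.1), *Chd4* (252 ± 42.7), *Mta2* (161 ± 13.0), *Hdac2* (133 ± 13.8), *Mbd2* (131 ± 12.4), *Mta1* (107 ± 18.1), *Chd3* (85.4 ± 20.3), *Gatad2a* (53.1 ± 4.88) and *Mta3* (27.3 ± 4.50). *Hdac2* and *Mbd2* did not differ beyond their spread in that order, and *Mta3* was the only one of the 10 whose range lay below all the others. In non-ECs, the order began with *Mbd3* (378 ± 45.01 TPM), *Chd4* (363 ± 22.4) and *Hdac1* (337 ± 20.4), whose ranges overlapped. It went on with *Mta2* (269.9 ± 27.9), *Mbd2* (242 ± 24.5), *Mta1* (162 ± 11.7), *Hdac2* (106 ± 26.7), *Gatad2a* (73.4 ± 5.84), *Mta3* (58.1 ± 5.13) and *Chd3* (14.1 ± 5.20). *Chd3* thus held the eighth place among the 10 members in LSECs and the last in non-ECs. Of the other subunits, the histone-binding gene *Rbbp7* had the highest mean TPM among the NuRD genes in both fractions (373 ± 29.9 and 426 ± 33.4 TPM). *Cdk2ap1* stood at 258 ± 22.1 and 328 ± 28.5 TPM, *Rbbp4* at 136 ± 12.1 and 154 ± 15.3 TPM, and *Gatad2b* at 23.98 ± 5.20 and 23.97 ± 3.45 TPM. The third CHD paralog, *Chd5*, which is known mainly from neurons and testis, had a mean of 0.843 ± 0.369 TPM in LSECs and 0.650 ± 0.281 TPM in non-ECs.

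**Figure D1:**
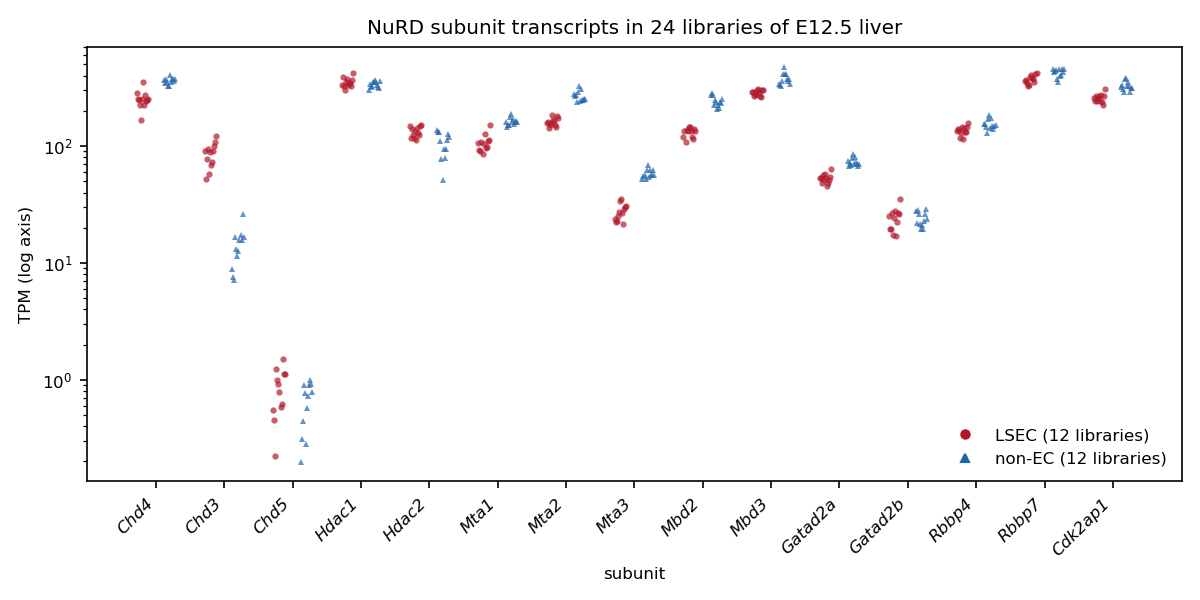
TPM (log axis) of the 10 members and the 5 other NuRD genes in the 12 LSEC libraries (circles) and the 12 non-EC libraries (triangles). *Chd3* lies at 52.2 to 122 TPM in LSECs and 7.15 to 26.1 TPM in non-ECs, the widest separation among the subunits drawn.

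Between the fractions, the ATPase genes moved apart. *Chd3* ranged from 52.2 to 122 TPM in the LSEC libraries (median 89.6) and from 7.15 to 26.1 TPM in the non-EC libraries (median 14.3), with no overlap. *Chd4* ranged from 168 to 351 TPM in LSECs (median 251) and from 328 to 406 TPM in non-ECs (median 366), with 1 LSEC library, Brg1-ECKO replicate 1, inside the non-EC range. Over the mean of the 4 genotypes, limma on log2(TPM + 1) gave *Chd3* a log2 difference of 2.56 (SE 0.11, adjusted p = 4.3e-15) and *Chd4* one of -0.54 (SE 0.07, adjusted p = 2.54e-07). Without Brg1-ECKO replicate 1 of LSECs, the difference of *Chd3* was 2.58.

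Both scaffold and DNA-binding paralogs were lower in LSECs. *Mta1*, *Mta2* and *Mta3*, which encode the scaffold, fell by 0.60, 0.74 and 1.07 on the log2 scale, with adjusted p of 2.68e-08, 2.09e-10 and 6.56e-12. *Mbd2* fell by 0.88 (adjusted p = 5.95e-13), *Mbd3* by 0.39 (adjusted p = 2.64e-07) and *Gatad2a*, whose protein bridges MBD and CHD, by 0.46 (adjusted p = 4.17e-08). *Mbd2* had 109 to 147 TPM in LSECs and 206 to 283 TPM in non-ECs, and *Mta3* had 21.7 to 35.2 and 52.1 to 69.2 TPM, so neither overlapped. The deacetylase genes did not share this direction. *Hdac2* was higher in LSECs by 0.37 (SE 0.089, adjusted p = 0.000703), although its ranges of 112 to 151 and 51.8 to 138 TPM overlapped. *Hdac1* differed by 0.06 (95% interval -0.05 to 0.17, adjusted p = 0.297).

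In all, 9 of the 10 members passed the threshold of adjusted p under 0.05, 2 of them higher and 7 lower in LSECs. The background was as large, since 82.6% of all genes tested passed, 41.4% higher and 41.2% lower. Members that also changed by more than 1 on the log2 scale were *Chd3* and *Mta3*, against 29.0% of all genes, and 6 of the 10 did not overlap between the 12 libraries of each fraction (*Chd3* above, and *Mta2*, *Mta3*, *Mbd2*, *Mbd3* and *Gatad2a* below), against 37.7% of all genes. The median log2 difference of the members was -0.50. With mitochondrial genes left out, *Hdac1* passed the threshold at 0.32, and with quantile normalisation it passed at 0.37. *Mbd3* did not pass under quantile normalisation (-0.08, adjusted p = 0.0908).

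Among the control embryos alone, 8 of the 10 members passed, against 67.1% of all genes. *Chd3* had 90.7, 52.2 and 78.0 TPM in the control LSEC libraries and 8.95, 7.64 and 7.15 TPM in the control non-EC libraries, a log2 difference of 3.03 (SE 0.22, adjusted p = 1.35e-10). *Hdac2*, which was higher in LSECs over the 4 genotypes, showed a difference of 0.01 in controls (95% interval -0.36 to 0.39, adjusted p = 0.946). The call of *Mbd3* in controls (-0.23, adjusted p = 0.0444) turned sign in each of the other scalings, to 0.08 with quantile normalisation and to 0.04 without mitochondrial genes. The calls of *Chd4* (-0.48) and *Gatad2a* (-0.46) in controls were lost without mitochondrial genes, at -0.21 and -0.19.

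Ratios of paralogs within a library do not depend on the scaling of the total. The *Chd3* share of *Chd3* plus *Chd4* ranged from 16.5 to 32.2% in LSECs (median 25.2%) and from 1.86 to 6.72% in non-ECs (median 3.92%). The log2 ratio of *Chd3* to *Chd4* was -1.58 ± 0.39 in LSECs and -4.78 ± 0.55 in non-ECs (SD, n = 12), a 9.16-fold difference. An exact permutation test that exchanged the fraction labels within each genotype gave p = 1.25e-05, the smallest that its 160000 arrangements can give, and adjusted p = 4.38e-05 over 7 pairs (two-sided). All 12 LSEC libraries had a higher ratio than the non-EC library of the same genotype and number.

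The ratio of *Mbd2* to *Mbd3* also separated the fractions, in the other direction. It was -1.14 ± 0.09 in LSECs and -0.64 ± 0.27 in non-ECs (log2, difference -0.50, exact permutation p = 1.25e-05, adjusted p = 4.38e-05). The ratio of *Mta3* to *Mta2* was lower in LSECs by 0.36 (exact permutation, adjusted p = 5.83e-05, 12 of 12 pairs) and that of *Gatad2b* to *Gatad2a* was higher by 0.45 (adjusted p = 0.00035, 12 of 12 pairs). The ratio of *Hdac2* to *Hdac1* was higher in LSECs by 0.31 (exact permutation, adjusted p = 0.0274, 9 of 12 pairs). By genotype the ratio was -1.37 in LSECs and -1.26 in non-ECs of controls, the other way round, and -1.39 and -1.47 in Chd4/Brg1-ECDKO. The gap lay in Chd4-ECKO (-1.44 and -2.18) and Brg1-ECKO (-1.43 and -1.98), where the non-EC ratios were low. Its adjusted p rose to 0.0607 without LSEC control replicate 1, to 0.0526 without LSEC control replicate 3 and to 0.0669 without LSEC Chd4-ECKO replicate 1. The ratio of *Mta1* to *Mta2* differed by 0.13 and missed the threshold (exact permutation, adjusted p = 0.0507), though it passed at 0.0251 with the libraries paired by genotype and number. The ratio of *Rbbp7* to *Rbbp4* differed by -0.00 (exact permutation p = 0.952). In total, 5 of the 7 ratios differed between the fractions over the 4 genotypes, the last of these, *Hdac2* to *Hdac1*, not in the same direction in each genotype.

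**Figure D2:**
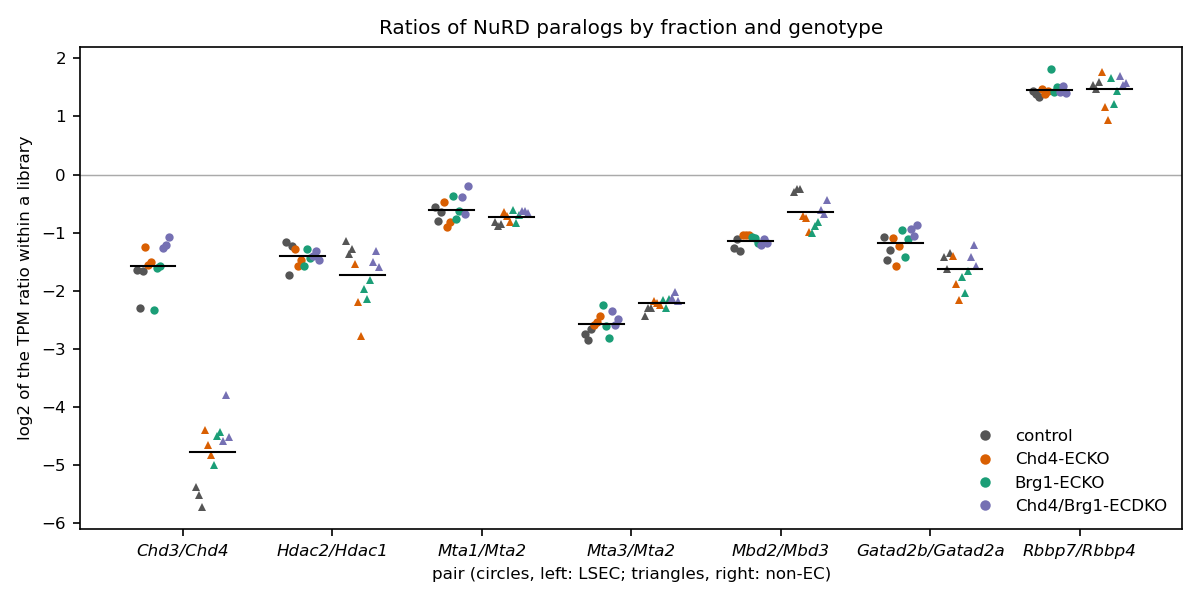
The log2 ratio of TPM in 7 pairs of NuRD paralogs, by fraction, with 1 point per library coloured by genotype and a line at the mean of 12 libraries. The ratios of *Chd3* to *Chd4* and of *Mbd2* to *Mbd3* do not overlap between LSECs and non-ECs, while those of *Rbbp7* to *Rbbp4* lie at means of 1.46 and 1.47.

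The targeted gene was then read in the LSEC libraries by genotype. *Chd4* stood at 285, 255 and 246 TPM in controls, 223, 168 and 252 TPM for Chd4-ECKO, 351, 225 and 272 TPM for Brg1-ECKO and 242, 249.8 and 256 TPM for Chd4/Brg1-ECDKO. Every mutant group overlapped the controls. The log2 difference from controls was -0.30 for Chd4-ECKO (95% interval -0.67 to 0.06, limma adjusted p = 0.962), 0.09 for Brg1-ECKO (adjusted p = 0.894) and -0.07 for Chd4/Brg1-ECDKO (95% interval -0.44 to 0.30, adjusted p = 0.869). Without Brg1-ECKO replicate 1, its difference was -0.08. TPM of the whole gene also counts transcripts that lack only the floxed exons, so *Chd4* levels check the labels weakly. Which exons those are, the study's own qRT-PCR of both transcripts, and the protein were not analysed here. *Smarca4*, the gene targeted in Brg1-ECKO, had 134 to 161 TPM in control LSECs, 111 to 157 TPM in Brg1-ECKO and 117 to 151 TPM in Chd4/Brg1-ECDKO (log2 differences -0.16 and -0.14, adjusted p = 0.779 and 0.704). Neither gene gave a TPM difference past the threshold in LSECs of the genotypes that target it, and groups are named by their labels throughout.

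Against that level of *Chd4*, the paralog *Chd3* was compared for a rise in LSECs. It stood at 90.7, 52.2 and 78.0 TPM in controls, 94.3, 57.3 and 88.4 TPM for Chd4-ECKO, 69.6, 73.3 and 90.8 TPM for Brg1-ECKO and 100.5, 108 and 122 TPM for Chd4/Brg1-ECDKO. The Chd4/Brg1-ECDKO libraries lay above all control libraries, and the other mutants overlapped the controls. Libraries of control and Chd4-ECKO LSECs with the same number deviated together, a pairing read from these same data. Within those pairs *Chd3* was higher in Chd4-ECKO in 3 of 3. This count was not tested, and the share of all genes that reach it was not counted. With the replicate number as a block over all 12 LSEC libraries, the difference of 0.12 is the same by design (limma adjusted p = 0.999). The log2 difference was 0.12 for Chd4-ECKO (95% interval -0.33 to 0.58, limma adjusted p = 1.00), 0.11 for Brg1-ECKO (adjusted p = 0.894) and 0.60 for Chd4/Brg1-ECDKO (95% interval 0.15 to 1.06, adjusted p = 0.261). The last did not pass, with adjusted p from 0.0896 to 0.762 over the alternatives. The median of all genes in that comparison was 0.16, and it was -0.00 with quantile normalisation. Chd4/Brg1-ECDKO against Chd4-ECKO gave *Chd3* 0.48 (limma adjusted p = 0.479). The libraries of these groups did not overlap, and the share of all genes that did not was not counted.

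The share of *Chd3* in *Chd3* plus *Chd4* in LSECs was 24.2, 17.0 and 24.1% in controls, 29.7, 25.4 and 25.9% for Chd4-ECKO, 16.5, 24.6 and 25.1% for Brg1-ECKO and 29.4, 30.1 and 32.2% for Chd4/Brg1-ECDKO. Both genotypes with Chd4 fl/fl lay above all controls, and Brg1-ECKO overlapped them. The log2 ratio of *Chd3* to *Chd4* was higher than in controls by 0.43 for Chd4-ECKO and 0.68 for Chd4/Brg1-ECDKO, and 3 against 3 libraries cannot give a p below 0.10 in an exact permutation test, so this could not pass. Of the 7 paralog ratios, 3 did not overlap with controls in Chd4-ECKO LSECs and 3 in Chd4/Brg1-ECDKO LSECs, so separation was not particular to this pair. The others were *Mta3* to *Mta2* in both mutants (0.22 and 0.27), *Mbd2* to *Mbd3* in Chd4-ECKO (0.19) and *Gatad2b* to *Gatad2a* in Chd4/Brg1-ECDKO (0.33). Summed leukocyte markers in the same LSEC libraries stood at 271 to 340 TPM in controls, 329 to 547 TPM in Chd4-ECKO, 246 to 415 TPM in Brg1-ECKO and 304 to 453 TPM in Chd4/Brg1-ECDKO, and each mutant group overlapped the controls. Of the 5 genes of that list, limma called 1 (*Spi1*, 1.102), 0 and 0, against 0.707%, 0.0223% and 0.870% of all genes, and 4, 4 and 3 had an unadjusted p under 0.05, against 6.49%, 9.68% and 12.1% of all genes. Their part in the *Chd3*, *Mta3* and ratio values was not tested. The sum of both genes was 336 ± 35.4 TPM in controls, 295 ± 60.7 for Chd4-ECKO, 360.3 ± 61.4 for Brg1-ECKO and 359 ± 17.5 for Chd4/Brg1-ECDKO (SD, n = 3), and each mutant group overlapped the controls.

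**Figure D3:**
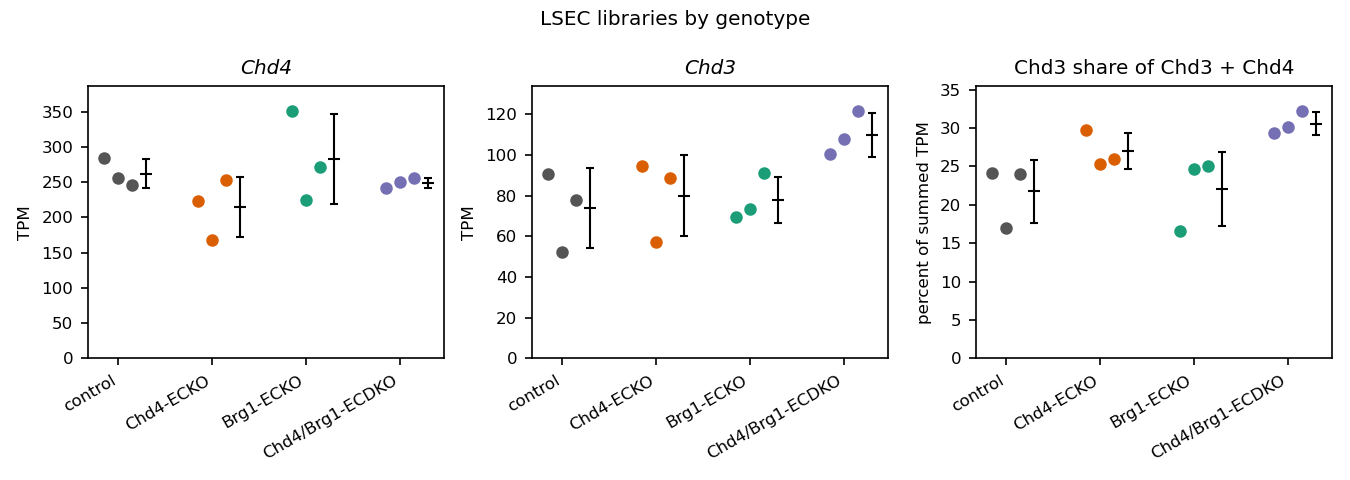
*Chd4* (TPM), *Chd3* (TPM) and the *Chd3* share of their sum (percent) in the LSEC libraries by genotype, with 3 points per group and the mean ± SD. The share is 21.7 ± 4.12% in controls and 30.6 ± 1.498% for Chd4/Brg1-ECDKO, and *Chd4* overlaps the controls in each mutant.

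None of the other members passed in LSECs either. Of the 10 members, limma called 0 for Chd4-ECKO, 0 for Brg1-ECKO and 0 for Chd4/Brg1-ECDKO, against 0.707%, 0.0223% and 0.870% of all genes, and 0, 0 and 3 had an unadjusted p under 0.05, against 6.49%, 9.68% and 12.1% of all genes. Between Chd4/Brg1-ECDKO and Chd4-ECKO, 0 were called against 0.0372% of all genes, and 1 had an unadjusted p under 0.05, against 10.4% of all genes. The members not overlapping with controls were *Mta3* in Chd4-ECKO (12.3% of all genes did not overlap) and *Chd3*, *Mta1* and *Mta3* in Chd4/Brg1-ECDKO (23.1% of all genes). There were none in Brg1-ECKO, where the share of all genes was not counted. *Mta3* stood at 23.6, 22.4 and 22.7 TPM in controls, at 25.1, 27.2 and 33.9 TPM for Chd4-ECKO and at 28.7, 29.9 and 30.9 TPM for Chd4/Brg1-ECDKO. Its log2 differences were 0.30 (adjusted p = 0.939) and 0.37 (adjusted p = 0.392). *Mta1* in Chd4/Brg1-ECDKO had 111, 112 and 152 TPM against 107, 92.3 and 91.2 TPM in controls (0.35, adjusted p = 0.393). For *Mbd3*, the narrowest interval of the 10 ran from -0.23 to 0.25 for Chd4-ECKO, and the widest, that of *Chd3*, from -0.33 to 0.58.

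The same comparisons were made in the non-EC libraries, which hold blood cells in which the Cre may also have been active. There *Chd4* stood at 370.3, 350.0 and 378 TPM in controls and at 328 to 406 TPM in the 9 mutant libraries, with no call (log2 differences -0.12, 0.05 and 0.03). *Chd3* was low in each library and differed by genotype. It had 8.95, 7.64 and 7.15 TPM in controls, 16.7, 13.1 and 11.5 TPM for Chd4-ECKO, 12.7, 15.6 and 17.3 TPM for Brg1-ECKO and 15.7, 26.1 and 16.6 TPM for Chd4/Brg1-ECDKO. All 9 mutant libraries lay above the 3 controls, which the 3 comparisons share. *Chd3* rose by 0.72 for Chd4-ECKO (SE 0.20, limma adjusted p = 0.0473), by 0.86 for Brg1-ECKO (adjusted p = 0.0195) and by 1.17 for Chd4/Brg1-ECDKO (95% interval 0.73 to 1.61, adjusted p = 0.0374). Adjusted p over the alternatives ran from 0.0195 to 0.134, from 0.0126 to 0.0798 and from 0.0244 to 0.163.

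These calls of *Chd3* depended on the processing and on single libraries, and held in 4 of 16 alternatives in Chd4-ECKO, 12 of 15 in Brg1-ECKO and 5 of 15 in Chd4/Brg1-ECDKO. In Chd4-ECKO the adjusted p was 0.0712 with no filter on low values, 0.063 without mitochondrial genes, 0.0505 with no variance trend and 0.122 with the 2 groups alone, while the log2 difference was 0.68 without mitochondrial genes and 0.72 in the other 3. The call there was also lost without any 1 of the 3 control libraries or without Chd4-ECKO replicate 2 or 3, at differences of 0.66 to 0.83. In Brg1-ECKO it was lost without control replicate 2 or 3 or Brg1-ECKO replicate 3, at 0.76 to 0.84, and in Chd4/Brg1-ECDKO at 0.95 to 1.30 without any 1 of its 6 libraries, where 0 to 14 genes of the whole table were called. The *Chd3* share of *Chd3* plus *Chd4* in non-ECs was 2.12 ± 0.252% in controls, 3.91 ± 0.570% for Chd4-ECKO, 3.89 ± 0.744% for Brg1-ECKO and 4.97 ± 1.51% for Chd4/Brg1-ECDKO (SD, n = 3). Summed endothelial markers in these non-EC libraries stood at 25.8 to 44.98, 30.1 to 39.6, 38.7 to 59.7 and 41.8 to 49.3 TPM in the same order of groups, against 857 to 1790 TPM in LSECs. Of the 8 markers, 6 were tested in non-ECs and limma called 0 of the 6 in any mutant, with 2, 4 and 1 of them at an unadjusted p under 0.05, as were 33.9%, 28.0% and 11.7% of all genes in non-ECs of the 3 mutants. Their part in the *Chd3* values was not tested.

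*Hdac2* had lower levels in non-ECs of the mutants. It stood at 138, 132 and 132 TPM in controls, 112, 77.1 and 51.8 TPM for Chd4-ECKO, 93.9, 79.9 and 94.3 TPM for Brg1-ECKO and 113, 128 and 119 TPM for Chd4/Brg1-ECDKO. All 9 mutant libraries lay below the controls. In Chd4-ECKO, *Hdac2* fell by 0.80 (95% interval -1.25 to -0.35, limma adjusted p = 0.0375), with adjusted p from 0.00146 to 0.293 over the alternatives, 8 of 16 of which kept the call. That call was lost without any 1 of the 3 control libraries or without Chd4-ECKO replicate 2 or 3, and the difference then lay between -0.81 and -0.52. The differences in Brg1-ECKO (-0.58, adjusted p = 0.0914) and Chd4/Brg1-ECDKO (-0.16, adjusted p = 0.907) did not pass, though with the 2 groups alone the same difference in Brg1-ECKO passed (adjusted p = 0.00966). *Hdac1*, the paralog, stood at 305 to 339 TPM in controls and 317 to 369 TPM in mutants, with no call. The *Hdac2* share of both was 29.5 ± 1.57% in controls and 18.7 ± 6.44% for Chd4-ECKO, with single libraries at 25.5, 17.9 and 12.7%. Their sum was 455 ± 14.7 TPM in controls and 425 ± 15.4 TPM for Chd4-ECKO.

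*Mbd2*, whose protein binds methylated DNA, passed the test in non-ECs of Brg1-ECKO, while calls of its paralog *Mbd3* depended on the setting. *Mbd2* stood at 274, 283 and 272 TPM in controls, 223, 248 and 239.6 TPM for Chd4-ECKO, 206, 224 and 214 TPM for Brg1-ECKO and 237, 233 and 251 TPM for Chd4/Brg1-ECDKO. Each mutant library was below the controls, and *Mbd2* fell by 0.36 for Brg1-ECKO (SE 0.07, limma adjusted p = 0.00847). This call held in 15 of 15 alternatives. In Chd4-ECKO the difference was -0.22 (adjusted p = 0.063), and it passed without mitochondrial genes at -0.27 (adjusted p = 0.0331). In Chd4/Brg1-ECDKO it was -0.20 (adjusted p = 0.237). *Mbd3* stood at 338, 336 and 324 TPM in controls, 364, 415 and 478 TPM for Chd4-ECKO, 416, 414 and 375 TPM for Brg1-ECKO and 361, 376 and 341 TPM for Chd4/Brg1-ECDKO. Its differences of 0.32, 0.27 and 0.11 did not pass (adjusted p = 0.0566, 0.0984 and 0.81), although no mutant library overlapped the controls. In Chd4-ECKO *Mbd3* passed with quantile normalisation (0.29, adjusted p = 0.0446), with a mean of at least 5 TPM (0.32, adjusted p = 0.0494) and without Chd4-ECKO replicate 1 (0.42, adjusted p = 0.00379), and in Brg1-ECKO it passed with the 2 groups alone (adjusted p = 0.0417). The *Mbd2* share of both was 45.4 ± 0.526% in controls, 36.2 ± 2.50% for Chd4-ECKO, 34.9 ± 1.59% for Brg1-ECKO and 40.1 ± 2.12% for Chd4/Brg1-ECDKO, and 28.6 to 32.7% in LSECs.

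**Figure D4:**
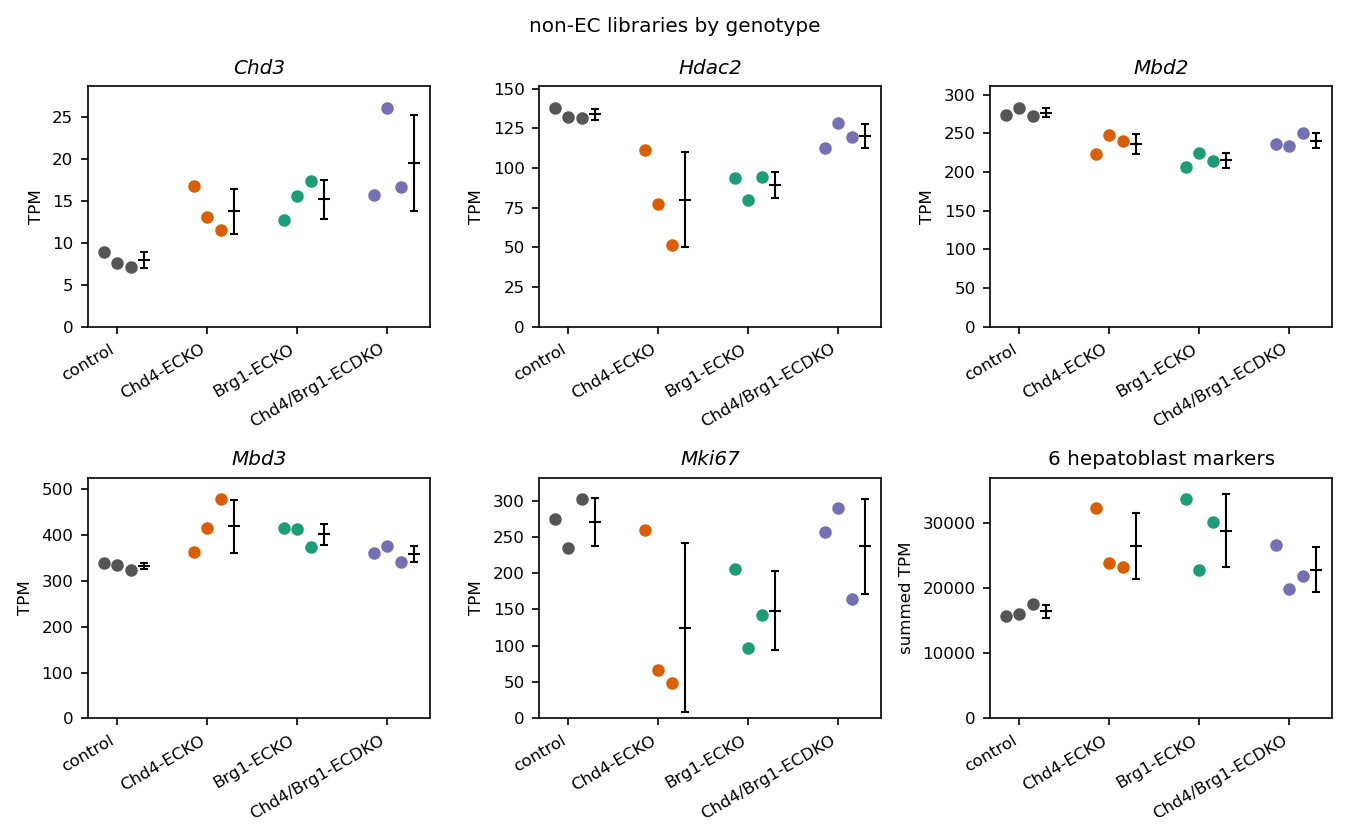
TPM of *Chd3*, *Hdac2*, *Mbd2*, *Mbd3*, the proliferation gene *Mki67* and the summed hepatoblast markers in the non-EC libraries by genotype, with the mean ± SD of 3 libraries. *Hdac2* and *Mki67* are lowest in replicates 2 and 3 of Chd4-ECKO, at 77.1 and 51.8 TPM and at 67.2 and 48.7 TPM.

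Counted over the 10 members, non-ECs had 2 calls in Chd4-ECKO (*Chd3* higher, *Hdac2* lower), 2 for Brg1-ECKO (*Chd3* higher, *Mbd2* lower) and 1 for Chd4/Brg1-ECDKO (*Chd3* higher). Of all genes, 9.48%, 11.7% and 0.581% were called. The members whose 3 mutant libraries did not overlap the 3 controls were *Chd3* and *Mbd3* (above) and *Hdac2* and *Mbd2* (below) in each mutant. That made 4 of 10 in Chd4-ECKO and 4 of 10 in Brg1-ECKO, where 27.4% and 39.9% of all genes did not overlap. In Chd4/Brg1-ECDKO they were joined by *Mta3* above and *Mta2* below, which made 3 above and 3 below, where 16.0% and 8.01% of all genes lay above and below. *Mta1* and *Gatad2a* overlapped the controls in each comparison. Without Chd4-ECKO replicates 2 and 3, a setting chosen after seeing the data, 1 library was left in that group and 0 genes of the whole table were called, so calls could not be compared. The difference of *Hdac2* was then -0.26 and that of *Chd3* 1.00. Without Chd4-ECKO replicate 1, 5 members were called there, among 4592 genes.

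Other measures were read in the same non-EC libraries. The hepatoblast marker sum was 15676 to 17497 TPM in controls, 23277 to 32233 TPM for Chd4-ECKO, 22728 to 33603 TPM for Brg1-ECKO and 19912 to 26606 TPM for Chd4/Brg1-ECDKO, and 5, 6 and 0 of its 6 genes passed as higher, where 9.48%, 11.7% and 0.581% of all genes were called. At an unadjusted p under 0.05 there were 6, 6 and 4 of the 6, against 33.9%, 28.0% and 11.7% of all genes. *Mki67* stood at 275, 235 and 302 TPM in controls and at 259, 67.2 and 48.7 TPM for Chd4-ECKO, where *Hdac2* had 112, 77.1 and 51.8 TPM. The summed cell cycle list was 2066 to 2259 TPM in controls, 1718 to 1916 for Chd4-ECKO, 1564 to 1782 for Brg1-ECKO and 1863 to 2032 for Chd4/Brg1-ECDKO. Of its 7 genes, limma called 0, 2 and 0, both lower (*Ccna2*, a cyclin, and *Pcna*, the replication clamp), and 4, 2 and 1 had an unadjusted p under 0.05, again beside 33.9%, 28.0% and 11.7% of all genes. Mitochondrial transcripts took 6.17 to 7.69% of the total in controls and 7.37, 3.43 and 2.33% in Chd4-ECKO replicates 1 to 3. They took 3.04 to 5.51% in Brg1-ECKO and 6.43 to 6.65% in Chd4/Brg1-ECDKO. The erythroid list had a median difference of -0.01, -0.89 and -0.39 in the 3 mutants. Summed mesenchymal markers stood at 8.18 to 20.2 TPM in controls, 17.3 to 34.8 for Chd4-ECKO, 16.5 to 25.6 for Brg1-ECKO and 14.1 to 19.6 for Chd4/Brg1-ECDKO. Their median differences were 0.42, 0.40 and 0.30. Of the 4 genes, limma called 0 in each mutant, and 1, 0 and 0 had an unadjusted p under 0.05, beside the same shares of all genes. The part of these measures in the *Chd3*, *Hdac2*, *Mbd2* and *Mbd3* values was not tested.

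Whether a genotype acted differently in the fractions was tested directly, as the effect in LSECs minus that in non-ECs. Of the 10 members, limma called 0 for each of Chd4-ECKO, Brg1-ECKO and Chd4/Brg1-ECDKO, against 1.02%, 1.04% and 0.0581% of all genes, and 3, 2 and 1 had an unadjusted p under 0.05, against 19.1%, 17.9% and 7.57% of all genes. The smallest was *Mbd2* in Brg1-ECKO, with a difference of 0.50 (SE 0.14, adjusted p = 0.0814). It passed with quantile normalisation (0.41, adjusted p = 0.0496), without mitochondrial genes (0.49, adjusted p = 0.0256) and without LSEC Brg1-ECKO replicate 3 (0.58, adjusted p = 0.0387). *Mbd2* in Chd4-ECKO also passed without mitochondrial genes (0.45, adjusted p = 0.0422). *Hdac2* in Chd4-ECKO differed by 0.70 (95% interval 0.18 to 1.23, adjusted p = 0.164), and by 0.97 without non-EC Chd4-ECKO replicate 1, where it passed (adjusted p = 0.00379), as did *Mbd3* (-0.41, adjusted p = 0.0455). For *Chd3* the differences were -0.60, -0.75 and -0.57 (adjusted p = 0.294, 0.214 and 0.681). The rise of *Chd3* in non-ECs is thus not shown to differ from its change in LSECs.

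**Figure D5:**
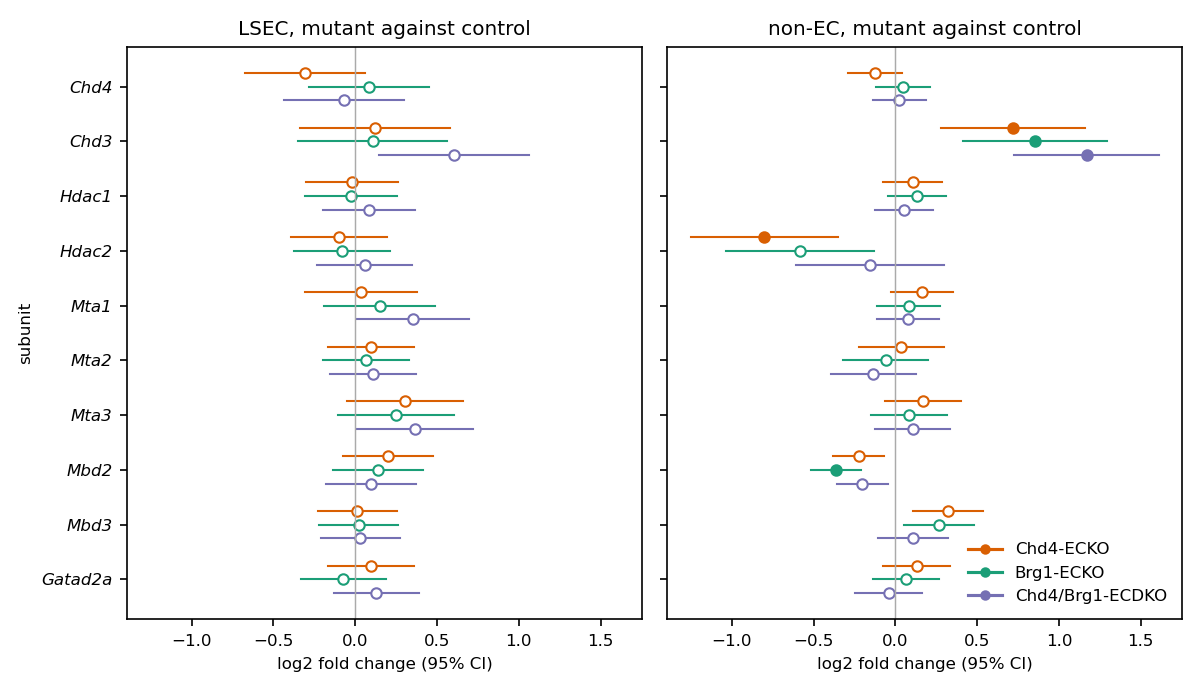
Log2 difference from controls of each of the 10 members in LSECs and in non-ECs for the 3 mutant genotypes, with 95% intervals, filled where adjusted p was under 0.05. The 5 filled points are *Chd3* in non-ECs of each mutant, *Hdac2* in Chd4-ECKO non-ECs and *Mbd2* in Brg1-ECKO non-ECs.

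The genes around the complex were counted from named lists, to be read against the 82.6% of all genes that passed between the fractions. Between the fractions, 3 of the 5 other subunits passed, each lower in LSECs (*Rbbp4* -0.18, *Rbbp7* -0.19 and *Cdk2ap1* -0.35). Genes of these lists were not read under other scalings. Leaving out mitochondrial genes moved the median of all genes from -0.00 to 0.24. The direction of small differences, such as those of *Rbbp4*, *Rbbp7* and *Hdac3*, is therefore uncertain. The difference of *Cdk2ap1* may include reads of Cdk2ap1rt, whose part was not tested. Of 15 NuRD partners, 3 were higher and 9 lower in LSECs, among them the blood cell factors *Zfpm1*, which encodes FOG1 (-2.06), *Ikzf1* (-2.81), *Bcl11a* (-1.87) and *Zbtb7a* (-1.23). Of 14 genes of other HDAC1 and HDAC2 complexes, 5 were higher and 7 lower. Of 7 other CHD remodelers, 1 was higher (*Chd6*, 0.69) and 2 lower (*Chd1l*, -1.33, and *Chd7*, -0.41). Of the 5 other MBD genes, 3 were higher and 2 lower, and of the other class I deacetylases *Hdac8* was higher (0.50) and *Hdac3* lower (-0.18). Of the paired BAF ATPases, which are the remodelers of the other targeted complex, *Smarca2* was higher in LSECs by 2.32 and *Smarca4* differed by -0.37, and both passed.

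In LSECs, limma called 0 genes of these lists in any mutant. At an unadjusted p under 0.05 there were 2, 3 and 3 of the 15 partners in Chd4-ECKO, Brg1-ECKO and Chd4/Brg1-ECDKO, and at most 2 genes of each other list. Of all genes, 0.707%, 0.0223% and 0.870% were called in these LSEC comparisons and 6.49%, 9.68% and 12.1% had an unadjusted p under 0.05. In non-ECs of Chd4-ECKO, where 9.48% of all genes passed, 1 of 14 partners was higher (*Sall4*, 0.59) and 2 lower (*Bcl11a*, -0.49, and *Ikzf1*, -0.34), and *Chd7* was lower (-0.60). An unadjusted p under 0.05 was reached there by 5 of 7 other CHD remodelers, whose median difference was -0.60 (0.01 over all genes). It was also reached by 5 of 14 partners, 4 of 14 genes of other HDAC1 and HDAC2 complexes and at most 1 gene of each other list, against 33.9% of all genes. In non-ECs of Brg1-ECKO, where 11.7% of all genes passed, 2 partners were higher (*Sall4*, 0.80, and *Pwwp2b*, 0.52) and 3 lower, among them *Ikzf1* (-0.56) and *Bcl11a* (-0.66), and *Rcor1* of the CoREST complex was lower (-0.53). Of the 7 other CHD remodelers there, 1 had an unadjusted p under 0.05, and their median difference was -0.42. So had 5 of 14 partners, 3 of 5 other MBD genes, 2 of 14 genes of other HDAC1 and HDAC2 complexes and at most 1 gene of each other list, against 28.0% of all genes. In Chd4/Brg1-ECDKO non-ECs, limma called 0 genes of these lists, with 5 partners, 1 BAF ATPase and 0 genes of the others at an unadjusted p under 0.05. Of all genes there, 0.581% were called and 11.7% had an unadjusted p under 0.05.

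The genes whose pattern was most like that of *Chd4* over the 24 libraries, by Pearson r of log2(TPM + 1) among 10232 genes, were *Lig3* (0.946), *Nbas* (0.942), *Akap1* (0.941), *Trub1* (0.94) and *Anapc1* (0.94). Those points share the difference between the fractions. Over the 12 LSEC libraries, among 10424 genes, they were *Mras* (0.93), *Ccser2* (0.918), *Cdk5rap2* (0.917), *Hdlbp* (0.914) and *Dennd2b* (0.913). These values are a description, and no NuRD member was among either set of 5.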

How the data were processed

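The authors deposited one table of TPM per gene, made in CLC Genomics Workbench on the mouse genome GRCm39, with poly-A selected libraries trimmed of repeated G bases. Each library came from 1 embryo and all carry batch number 1 in the labels. The 24 library columns were used. The 8 columns of group means were not, and 0 columns belonged to other samples. No read counts were used, so the depth per library is unknown and no counting interval is given. Where nothing else is said, p-values measure the spread between these libraries.

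Log2(TPM + 1) was tested with limma 3.58.1 (trend) in R 4.3.3, on genes with at least 1 TPM in 3 libraries. The 12 libraries of each fraction were fitted together (13444 genes in LSECs, 12223 in non-ECs), and all 24 for the fractions and the interactions (13775 genes). P-values were adjusted by Benjamini-Hochberg over all genes, and a call needs adjusted p under 0.05. Since 1 TPM was added, log2 differences understate the change of low genes. The 7 paralog ratios were tested by exact permutation on log2 TPM ratios, adjusted over the 7 pairs between fractions and over 42 tests between mutants and controls. The scripts were tested on simulated data. Positions and sequences came from GENCODE vM39 on GRCm39.

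Members and lists were chosen with earlier results of these data known. All 10 members were fitted and counted in every comparison, but in several comparisons values are printed for only some of them. Of other lists, at most 4 called genes are named, those of smallest p. The labels do not say what a replicate number stands for. LSEC and non-EC libraries with the same number and genotype deviated together in 12 of 12 pairs (correlation 0.124 to 0.411). So did LSEC control and Chd4-ECKO (0.112 to 0.390) and LSEC Chd4-ECKO and Chd4/Brg1-ECDKO (0.124 to 0.231), in 3 of 3 pairs each. Among LSEC pairs with different numbers, 8 of 36 also had a correlation over 0.1. This pairing was read from the data, and the main tests did not use it. It entered only in counts of pairs with the same direction and in the replicate block, an alternative. Within a fraction, that block used the number over all 12 libraries. Alternatives were a pseudocount of 0.1 TPM, no filter, a mean of at least 5 TPM, quantile normalisation, TPM rescaled without mitochondrial or globin genes, no trend, a replicate block, a fit of only the groups compared, and single libraries left out in turn.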

Additional observations from a re-analysis of the deposited data

How the results depend on the processing

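Calls among the 10 members in non-ECs depended on the settings. In Chd4-ECKO, 2 members were called, against 0 with no filter, 0 with the 2 groups alone, 1 with no variance trend, 3 with quantile normalisation or a mean of at least 5 TPM (*Mbd3* gained), and 0 to 5 with single libraries left out (5 without its replicate 1, where *Mta1*, *Mta3* and *Mbd3* were gained). Without mitochondrial genes the count stayed at 2, with *Mbd2* in and *Chd3* out. The setting without its replicates 2 and 3, added after seeing the data, leaves 1 library and called 0 members and 0 genes of the whole table, so it says nothing of the members. In Brg1-ECKO, 2 were called, against 4 with the 2 groups alone (*Hdac2* and *Mbd3* gained) and 1 to 2 with single libraries left out. In Chd4/Brg1-ECDKO, 1 was called, against 0 with no filter, without mitochondrial genes, without mitochondrial and globin genes and with the 2 groups alone, and 0 to 0 with single libraries left out. For the difference between fractions in the Chd4-ECKO effect, 0 members were called, against 1 (*Mbd2*) without mitochondrial genes (with or without globin genes) and 0 to 2 with single libraries left out. For the Brg1-ECKO effect, 0 were called, against 1 (*Mbd2*) with quantile normalisation, 1 (*Mbd2*) without mitochondrial genes (with or without globin genes) and 0 to 1 with single libraries left out. The cause was not tested.

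With the replicate block, 1 member was called in non-ECs of Chd4-ECKO, where the numbers do not pair the libraries, and the ratio count between fractions became 6 of 7 against 5. The block changed no other count of member calls by over 1.5 times. The ratio count was 6 with 1 TPM added, and 4 to 6 with single libraries left out. *Mbd3* between fractions in controls reversed, to 0.0768 with quantile normalisation, 0.0447 without mitochondrial genes and 0.0378 without mitochondrial and globin genes. Over single members and ratios, 2584 results kept their side of the threshold with no called value turning sign, 49 lost a call and 32 gained one. The 2584 include every alternative of the 42 mutant ratios. Those ratios could not pass with 3 against 3 libraries and were not compared with the threshold. Of 1633 member results called under neither setting, 82 changed sign, as did 9 of the 42 mutant ratios in at least 1 alternative. Over all genes, calls in non-ECs of Chd4-ECKO ran from 0 to 4592 around 1159, in Brg1-ECKO from 568 to 2069 around 1426, and in Chd4/Brg1-ECDKO from 0 to 301 around 71. In LSECs they ran from 29 (without Chd4-ECKO replicate 3) to 191 (without its replicate 1) around 95 for Chd4-ECKO, from 0 to 11 around 3 for Brg1-ECKO, and from 24 (without Chd4/Brg1-ECDKO replicate 3) to 313 (with the 2 groups alone) around 117 for Chd4/Brg1-ECDKO. For the difference between fractions they ran from 12 to 1913 around 140 (1913 without non-EC Chd4-ECKO replicate 1), from 49 to 405 around 143 and from 0 to 24 around 8. The shares of all genes called that stand beside member counts move with these. The depth of each library is unknown, so low values such as those of *Chd5* are given without a counting error.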
